A study of Mus musculus with 2 samples.

Results

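The genes described here are 9 digestive proteases of the exocrine pancreas, read in 2 RNA sequencing libraries of mouse pancreatic islets. They are the carboxypeptidase genes Cpa1 and Cpb1, the elastase genes Cela1, Cela2a and Cela3b, the chymotrypsin genes Ctrb1 and Ctrl, and the trypsinogen genes Prss2 and Try4. The 9 symbols were chosen by name, and all 9 were found among the 23652 genes of the deposited table. The first library came from Srsf2 flox/flox Ins2-Cre mice and the second from Srsf2 flox/flox mice, both aged 7 months. They are called the Ins2-Cre and the flox/flox library here. Both genotypes carry the floxed Srsf2 alleles, and they differ by Ins2-Cre, a recombinase under an insulin 2 promoter, which is active in beta cells. The number of mice behind each library is not given in the sources used here, and no library of Cre mice without floxed alleles was analysed here. With 1 library a genotype there is no replicate and no test across samples, so each difference describes these libraries and not the genotypes.

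Acinar cells surround the islets and make digestive enzymes as inactive precursors, which are stored in zymogen granules and secreted into the gut. There enteropeptidase cuts trypsinogen, and trypsin then activates the other precursors, chymotrypsinogen, proelastase and procarboxypeptidase among them. Trypsin cuts after basic residues, chymotrypsin mainly after large hydrophobic ones and some elastases after small ones, while carboxypeptidases remove residues from the end of the chain. Islets are picked out of digested pancreas, and their endocrine cells are not the source of these enzymes in the healthy gland.

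The Ins2-Cre library held 15098659 reads on listed genes and the flox/flox library 17412828. Insulin transcripts (Ins1 and Ins2), the defining product of beta cells, took 17.8% of reads in the Ins2-Cre library and 19.5% in the flox/flox library, so both libraries carried the labelled tissue. Srsf2 itself had 1209 reads in the Ins2-Cre library and 2296 in the flox/flox library, a ratio of FPKM of 0.607 (95% counting interval 0.566 to 0.651). FPKM divides a gene's reads by its length and by the depth of its library. Differences below are in log2(FPKM + 0.5), Ins2-Cre minus flox/flox, and a difference of at least 2-fold (1 on that scale) stands in for a call. The 10666 genes with a mean of at least 1 FPKM are called measured, and their median difference was -0.36. The difference of Srsf2 was -0.71, and -0.34 relative to that median. Counting intervals are exact binomial (Clopper-Pearson) intervals at 95%. They hold only the error of counting reads, which are not independent molecules when molecular identifiers are lacking, and nothing of the spread between mice.

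The upstream sequence of 5 of the proteases is shown, and whether it bears on the differences between the libraries was not tested. Acinar genes are classically driven by PTF1, a complex of the basic helix-loop-helix factor PTF1A with RBPJL or RBPJ, which binds an E-box paired with a TGGGAA box. The sequences are the 200 bases before the RefSeq start (GRCm38.p6), 5′ to 3′ on the gene's own strand. Capitals mark the E-box CACCTG, the shorter core GGGAA and the core TATAA, on either strand. Cela1 had the highest ratio between the libraries and Try4 the lowest, Prss2 is the second trypsinogen, Cela3b has a pair of CACCTG matches, and Ctrb1 was the most abundant.
Cela1, chr15:100687921-100688120, minus strand: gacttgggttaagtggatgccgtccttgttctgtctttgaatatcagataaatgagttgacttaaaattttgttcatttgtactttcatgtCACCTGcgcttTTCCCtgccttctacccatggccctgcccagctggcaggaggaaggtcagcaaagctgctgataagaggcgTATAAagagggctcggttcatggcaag
Cela3b, chr4:137430521-137430720, minus strand: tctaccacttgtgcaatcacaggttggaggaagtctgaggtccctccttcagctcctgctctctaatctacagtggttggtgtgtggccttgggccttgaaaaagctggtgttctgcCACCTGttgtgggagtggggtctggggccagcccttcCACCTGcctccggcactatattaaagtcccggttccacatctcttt
Ctrb1, chr8:111691011-111691210, minus strand: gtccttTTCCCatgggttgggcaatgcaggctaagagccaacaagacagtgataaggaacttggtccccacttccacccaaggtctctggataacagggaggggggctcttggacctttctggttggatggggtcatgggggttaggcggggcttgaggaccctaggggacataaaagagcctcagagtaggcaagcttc
Prss2, chr6:41521576-41521775, plus strand: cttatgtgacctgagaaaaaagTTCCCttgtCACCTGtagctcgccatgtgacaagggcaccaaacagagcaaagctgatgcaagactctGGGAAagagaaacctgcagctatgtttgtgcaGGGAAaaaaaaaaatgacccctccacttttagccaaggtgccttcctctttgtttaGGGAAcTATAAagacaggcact
Try4, chr6:41302072-41302271, plus strand: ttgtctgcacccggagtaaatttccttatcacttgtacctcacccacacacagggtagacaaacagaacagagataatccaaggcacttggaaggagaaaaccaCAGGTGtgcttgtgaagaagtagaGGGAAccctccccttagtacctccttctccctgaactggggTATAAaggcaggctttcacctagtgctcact

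Over the 250 bases before the start, CACCTG was found on either strand in 7 of the 9 proteases, all but Cpa1 and Ctrb1, and in 17.1% of the 27025 promoters of the RefSeq table. TGGGAA was found in 5 of the 9 (Cpa1, Cela2a, Ctrb1, Ctrl and Prss2) and in 21.5% of promoters. The general E-box CANNTG, which includes CACCTG, was in all 9 and in 66.0% of promoters. TATAAA was in 3 of the 9 (Cela1, Prss2 and Try4) and in 13.0% of promoters, and the shorter TATAA in the same 3 and in 23.5%. The core GGGAA, which lies within TGGGAA, was in 7 of the 9 and in 55.9% of promoters. CACCTG with GGGAA starting within 30 bases of it was in Cela1, Prss2 and Try4, or 3 of 9, and in 3.04% of promoters. The shorter forms of both boxes and this pairing were chosen after the sequences were read. These are matches of letters in a short window, and binding was not measured.

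**Figure D1:**
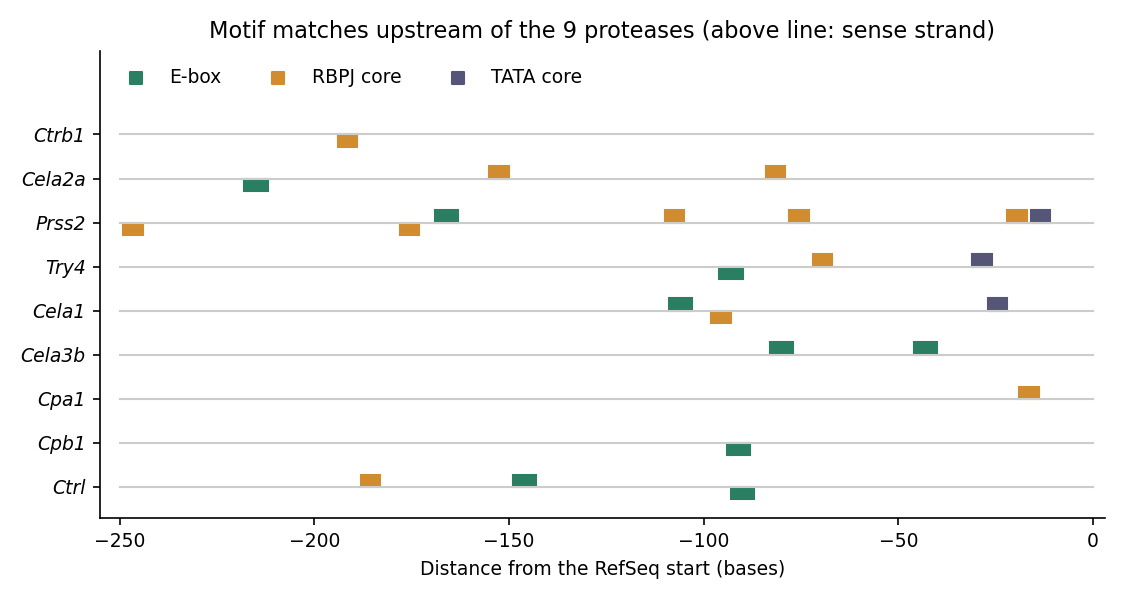
Matches of the E-box CACCTG, the core GGGAA and TATAA in the 250 bases before the RefSeq start of each of the 9 genes, on an axis of bases from the start, with matches on the gene's strand above the line and others below it. Cela3b and Ctrl each have a pair of E-box matches, and Cpa1 and Ctrb1 have none.

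All 9 proteases were higher in the Ins2-Cre library. Together they took 10.7% of its reads (1614970 reads, counting interval 10.68% to 10.71%), against 1.27% in the flox/flox library (221776 reads, 1.268% to 1.279%), a ratio of 8.40 (8.36 to 8.44). All 9 were at least 2-fold and also at least 4-fold higher, and 0 were lower. The share of measured genes past 2-fold in this direction was 1.57%, and past 4-fold 0.722%. The median difference of the 9 was 3.11, and 3.48 relative to the median of all measured genes. On that relative scale all 9 were again past 2-fold, beside 3.22% of measured genes higher and 1.36% lower. Set against insulin rather than the library total, there were 60.0 protease reads for every 100 insulin reads in the Ins2-Cre library and 6.52 in the flox/flox library. In bulk RNA, more acinar cells in a sample and more of these transcripts per acinar cell cannot be told apart.

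**Figure D2:**
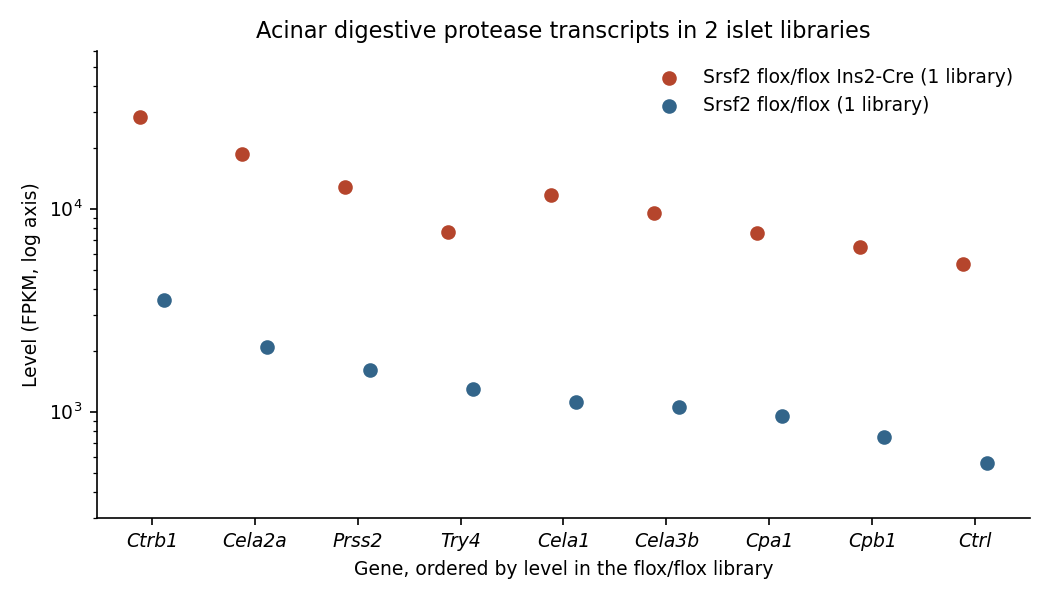
Level of each protease gene in FPKM on a log axis, with 1 point for the Ins2-Cre library and 1 for the flox/flox library, ordered by level in the flox/flox library. Every Ins2-Cre point lies above every flox/flox point, and Try4 is the gene that drops out of order.

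The proteases were already among the abundant transcripts of the flox/flox islets. By FPKM, 9 of 9 stood among the 20 highest genes of the Ins2-Cre library and 4 of 9 in the flox/flox library. The lowest of them in the Ins2-Cre library, Ctrl at 5340 FPKM, was above the highest in the flox/flox library, Ctrb1 at 3553 FPKM. That comparison is between different genes, so it describes their levels and gives no spread within a genotype. The order by FPKM was the same in both libraries at both ends, with Ctrb1, Cela2a and Prss2 highest and Cpa1, Cpb1 and Ctrl lowest. Try4 was the exception, placed 6 in the Ins2-Cre library and 4 in the flox/flox library. The highest member stood 5.30-fold above the lowest in FPKM in the Ins2-Cre library and 6.38-fold in the flox/flox library.

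The trypsinogens begin the activation cascade. Prss2, trypsinogen 2 (GRCm38 chromosome 6, 41521776 to 41525079, plus strand), had 159489 reads and 12788 FPKM in the Ins2-Cre library, against 23063 reads and 1603 FPKM in the flox/flox library. Its ratio was 7.98 (counting interval 7.87 to 8.09). Try4, trypsin 4, on the same chromosome (41302272 to 41305533, plus strand), had 92369 reads and 7657 FPKM in the Ins2-Cre library, against 17925 reads and 1288 FPKM in the flox/flox library. Its ratio of 5.94 (5.85 to 6.04) was the lowest of the 9, with an interval apart from all others. Per Try4 read there were 1.73 Prss2 reads in the Ins2-Cre library and 1.29 in the flox/flox library.

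Try4 is the member whose value is least certain, because trypsinogen copies share sequence. The first 90 coding bases, which open with the signal peptide and run on into the activation peptide that enteropeptidase removes, show how close the copies are. They are read 5′ to 3′ from GENCODE M21 transcripts (GRCm38), and capitals mark bases that differ from Try4. Try5 is a neighbour of Try4, and Prss2 lies further along the same cluster.
Try4, transcript at chr6:41302269-41305532, plus strand: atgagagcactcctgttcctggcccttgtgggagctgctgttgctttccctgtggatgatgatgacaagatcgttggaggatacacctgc
Try5, transcript at chr6:41311233-41314711, minus strand: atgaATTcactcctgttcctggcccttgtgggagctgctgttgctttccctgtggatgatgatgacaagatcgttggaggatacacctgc
Prss2, transcript at chr6:41521787-41525079, plus strand: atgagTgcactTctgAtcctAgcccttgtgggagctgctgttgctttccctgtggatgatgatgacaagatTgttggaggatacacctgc

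Try5 differed from Try4 at 3 of these bases and Prss2 at 5. Over the whole transcript, Try4 and Try5 were identical at 97.1% of aligned bases, with a longest shared run of 274 bases, and Try4 and Prss2 at 90.9%, with a run of 70. Of all windows of 50 bases in the Try4 transcript 65.6% occurred exactly in a transcript of another gene, and of windows of 100 bases 30.2%. For Prss2 these shares were 7.83% and 0%. The read length and the handling of reads that fit several copies are not given here. Try5 had 79825 reads in the Ins2-Cre library and 15487 in the flox/flox library, a ratio of 5.94 (5.84 to 6.05), the same as Try4 to 3 digits. There were 1.157 Try4 reads per Try5 read in both libraries.

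The remaining members share less with other genes than Try4 does. Windows of 50 bases found elsewhere made up 33.2% of the Cela3b transcript, all shared with Cela3a, and 25.6% of Cela2a, shared with 1 gene that is not analysed here. In Cpa1, Cpb1, Cela1, Ctrb1 and Ctrl 0% of windows were found in another gene. The Cela2a gene also overlaps Casp9, which encodes an initiator caspase, on the opposite strand. Casp9 had 212 reads in the Ins2-Cre library and 238 in the flox/flox library, and the strand setting of the counting is not given.

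The chymotrypsins cut after large hydrophobic residues. Ctrb1, chymotrypsinogen B1 (chromosome 8, 111686510 to 111691010, minus strand), was the most abundant member in both libraries. It had 378896 reads and 28292 FPKM in the Ins2-Cre library, where it ranked 4 among all listed genes by FPKM, against 54872 reads and 3553 FPKM in the flox/flox library, where it ranked 10. Its ratio was 7.96 (7.89 to 8.04). Ctrl, a chymotrypsin-like gene on the same chromosome (105931994 to 105933862, minus strand), was the least abundant member, with 71594 reads and 5340 FPKM in the Ins2-Cre library, against 8617 reads and 557 FPKM in the flox/flox library. Its ratio of 9.58 (9.37 to 9.80) was above that of Ctrb1 with no overlap of the intervals.

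The elastases had the highest ratios as a class. Cela1, pancreatic elastase 1 (chromosome 15, 100674422 to 100687920, minus strand), had 195004 reads and 11678 FPKM in the Ins2-Cre library, against 21494 reads and 1116 FPKM in the flox/flox library. Its ratio of 10.5 (10.3 to 10.6) was the highest of the 9, and only 14 measured genes, Cela1 included, had a difference as large. Cela2a (chromosome 4, 141814954 to 141826005, minus strand) had 260210 reads and 18672 FPKM in the Ins2-Cre library, against 33518 reads and 2085 FPKM in the flox/flox library, a ratio of 8.95 (8.85 to 9.06). Cela3b, on chromosome 4 as well (137421008 to 137430520, minus strand), had 129695 reads and 9576 FPKM in the Ins2-Cre library, against 16554 reads and 1060 FPKM in the flox/flox library, a ratio of 9.04 (8.89 to 9.18). The intervals of Cela2a and Cela3b overlapped. The neighbouring copy Cela3a had 9 reads in the Ins2-Cre library and 4 in the flox/flox library, so nearly all reads of this pair were assigned to Cela3b.

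The carboxypeptidases are zinc enzymes that act on the ends left by the other proteases. Cpa1, carboxypeptidase A1, which prefers aromatic and aliphatic end residues (chromosome 6, 30639218 to 30645361, plus strand), had 180358 reads and 7556 FPKM in the Ins2-Cre library, against 26103 reads and 948 FPKM in the flox/flox library. Its ratio was 7.97 (7.87 to 8.07). Cpb1, carboxypeptidase B1, which removes basic end residues (chromosome 3, 20249479 to 20275733, minus strand), had 147355 reads and 6493 FPKM in the Ins2-Cre library, against 19630 reads and 750 FPKM in the flox/flox library. Its ratio was 8.66 (8.53 to 8.79).

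Among themselves the 9 ratios spanned 1.76-fold, from Try4 to Cela1. In descending order they ran Cela1, Ctrl, Cela3b, Cela2a, Cpb1, Prss2, Cpa1, Ctrb1 and Try4. Neighbours in this order whose counting intervals overlapped were Cela3b and Cela2a, Prss2 and Cpa1, and Cpa1 and Ctrb1. Of the 36 pairs 32 had intervals that did not overlap, which says only that counting error is small at these depths. By class, the elastases had a summed ratio of 9.43 (9.35 to 9.50), the carboxypeptidases 8.26 (8.18 to 8.35), the chymotrypsins 8.18 (8.12 to 8.25) and the trypsinogens 7.09 (7.01 to 7.16).

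**Figure D3:**
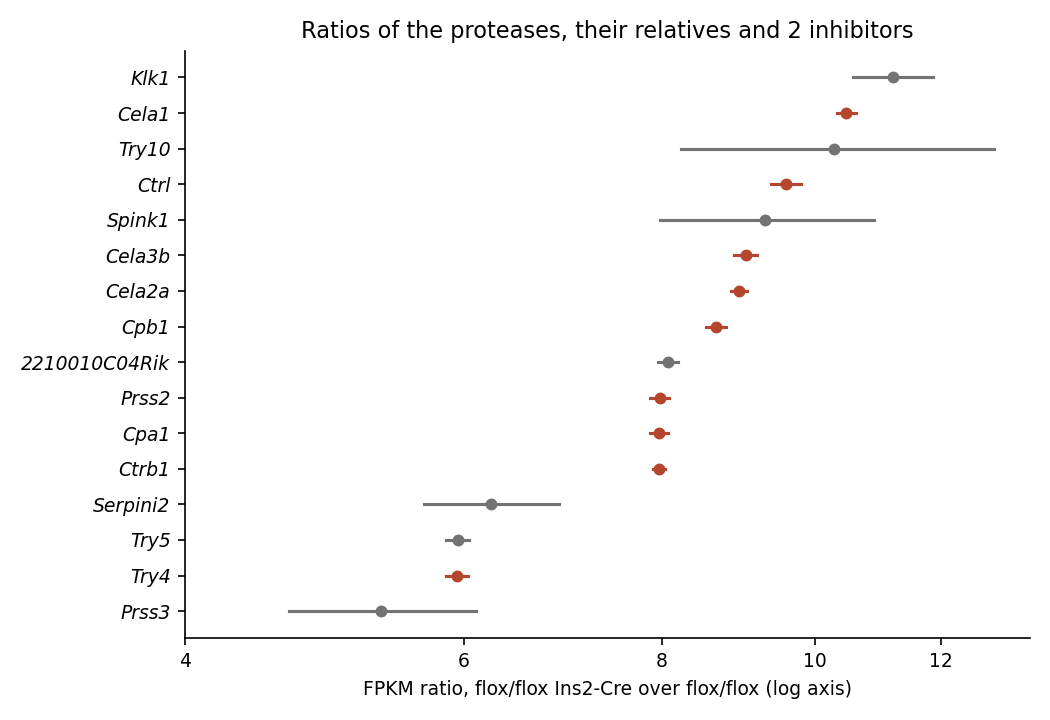
Ratio of FPKM, Ins2-Cre over flox/flox, on a log axis for the 9 proteases (red) and, in grey, other listed pancreatic protease genes with at least 50 flox/flox reads and the inhibitor genes Spink1 and Serpini2, with lines for the 95% counting interval. Try4 and Try5 sit together at 5.94, apart from the other 8 proteases between 7.96 and 10.5.

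The make-up of the protease reads was close in both libraries. Ctrb1 made up 23.5% of reads on the 9 genes in the Ins2-Cre library and 24.7% in the flox/flox library. Cela1 had a share of 12.1% in the Ins2-Cre library and 9.69% in the flox/flox library, the largest gain in percentage points. Try4 had 5.72% in the Ins2-Cre library and 8.08% in the flox/flox library, the largest loss. For 5 members the share was larger in the Ins2-Cre library and for 4 it was smaller. As a class the elastases made up 36.2% of protease reads in the Ins2-Cre library and 32.3% in the flox/flox library, and the trypsinogens 15.6% in the Ins2-Cre library and 18.5% in the flox/flox library.

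**Figure D4:**
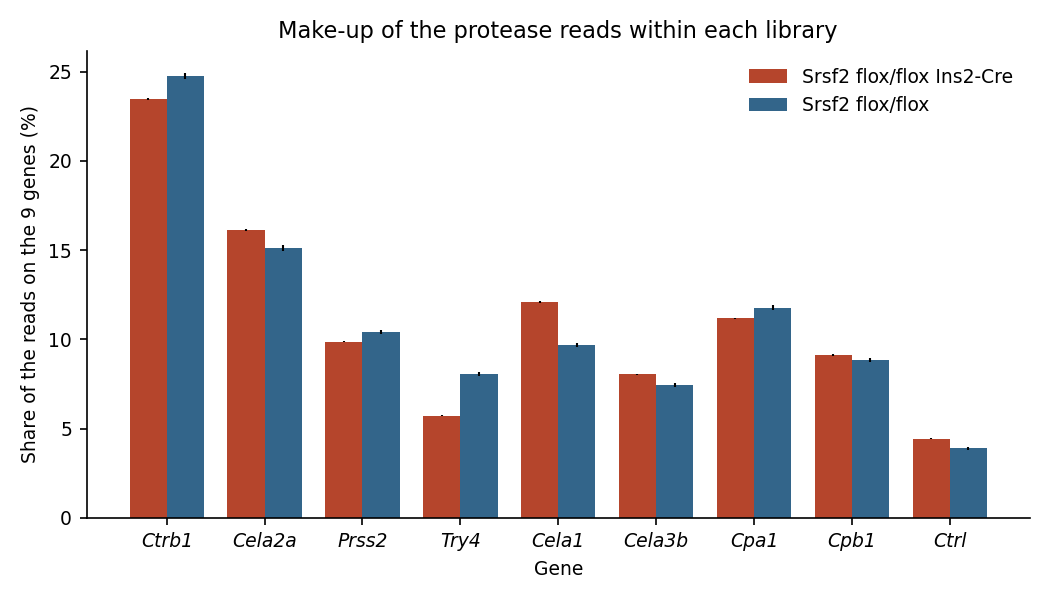
Share of the reads on the 9 protease genes taken by each gene, with a bar for the Ins2-Cre library and a bar for the flox/flox library, and lines for the 95% counting interval. Ctrb1 is the tallest pair at 23.5% and 24.7%, and the pairs that differ most are Cela1 and Try4.

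All 9 have short listed lengths, of 799 to 1581 bases. This is the length that enters FPKM and not the span of the gene on its chromosome. Measured genes of this listed length had a higher median difference than all measured genes. The other 1186 measured genes of that length range had a median difference of 0.05, against -0.36 over all measured genes, and 62 of them (5.23%) were at least 2-fold higher. Among the 500 genes nearest in length to Cela1, 3 had a difference as large as that of Cela1. Among the 500 nearest to Try4, 16 had one as large as that of Try4.

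The other pancreatic protease genes of a fixed list differed in the same direction where they were well covered. Of 11 listed genes 9 were measured. Of these 7 were past 2-fold higher and 0 past 2-fold lower, beside 1.57% and 6.32% of all measured genes. The median was 2.38, with a range from -0.85 to 3.48. The gene 2210010C04Rik, which aligned to the Try4 transcript at 81.6% identity, had 142004 reads in the Ins2-Cre library and 20293 in the flox/flox library, a ratio of 8.07 (7.95 to 8.19). No window of 50 bases of its transcript occurred in another gene, and its interval overlapped that of Prss2. Klk1, tissue kallikrein, had 12481 reads in the Ins2-Cre library and 1286 in the flox/flox library, a ratio of 11.2 (10.6 to 11.9). Low copies went either way on few reads: 1810009J06Rik had 13 reads in the Ins2-Cre library and 33 in the flox/flox library.

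Inhibitors made by the same cells were higher as well. Spink1, the secretory trypsin inhibitor that guards acinar cells against early activation, had 1492 reads and 234 FPKM in the Ins2-Cre library, against 185 reads and 25.2 FPKM in the flox/flox library. Its ratio of 9.30 (7.98 to 10.9) had an interval that covered the ratios of Cela1, Ctrl, Cela3b, Cela2a and Cpb1. Serpini2, a serpin of the pancreas, had 2602 reads in the Ins2-Cre library and 481 in the flox/flox library, a ratio of 6.24 (5.66 to 6.89). The other 5 measured genes of this list stayed under 2-fold, among them Ctsb, cathepsin B, a lysosomal enzyme able to activate trypsinogen, at a ratio of 1.25 (1.20 to 1.30), and Cst3, cystatin C, at 1.38 (1.34 to 1.42). Tmprss15, the enteropeptidase gene of the gut, had 0 reads in both libraries. The list as a whole had 7 measured members of 13 listed and a median of 0.37. Of the 7, 2 were at least 2-fold higher and 0 past 2-fold lower, beside 1.57% and 6.32% of all measured genes.

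The other secreted proteins of acinar cells, lipases, amylases, nucleases and granule proteins, had a median difference of 3.18 over 20 measured genes, beside 3.11 for the 9 proteases. Of the 20, 19 were past 2-fold higher and 1 was past 2-fold lower, beside 1.57% and 6.32% of all measured genes. The lower one, Dnase1, was just past 2-fold, on 16 reads in the Ins2-Cre library and 50 in the flox/flox library. Per 100 reads on this list there were 194.6 protease reads in the Ins2-Cre library and 226.3 in the flox/flox library. Their range, from the value of Dnase1 to 5.37, was wider than that of the proteases, from 2.57 to 3.39. Pnlip, pancreatic lipase, had a ratio of 9.32 (9.22 to 9.43), inside the span of the 9. Clps, colipase, with 2964 reads in the Ins2-Cre library and 78 in the flox/flox library, had a ratio of 43.8 (35.0 to 55.6), far outside it.

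**Figure D5:**
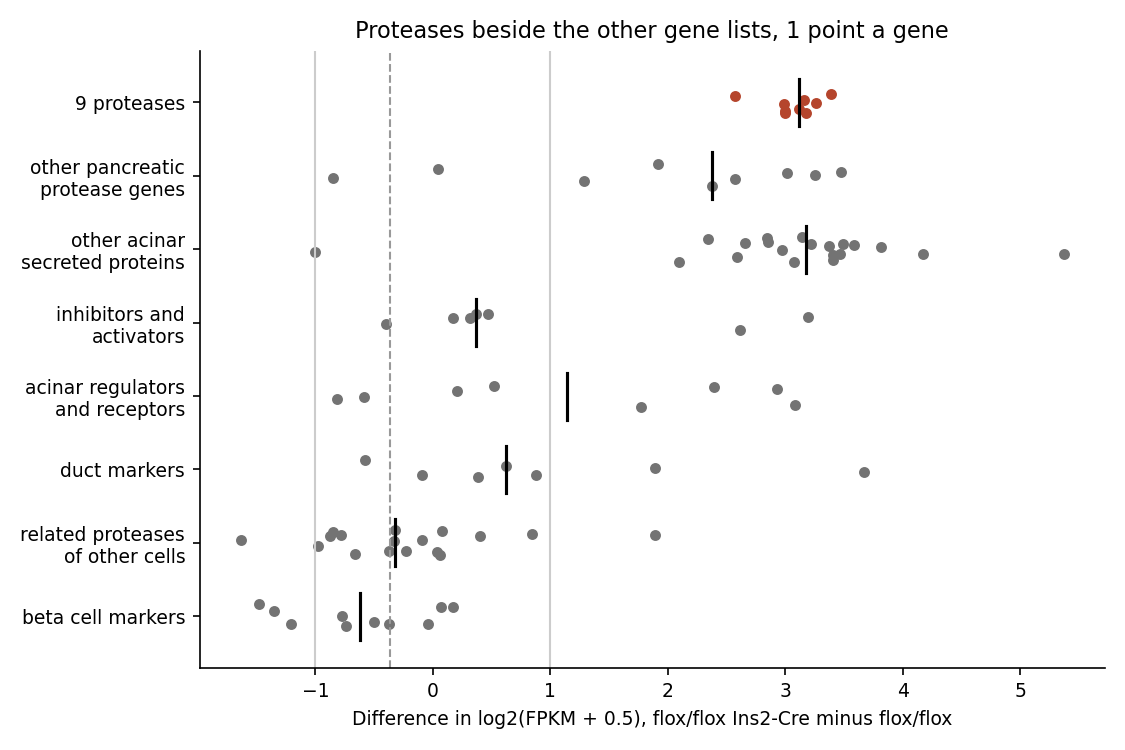
Difference in log2(FPKM + 0.5), Ins2-Cre minus flox/flox, with 1 point for each measured gene, a black tick at each list's median, grey lines at 2-fold and a dashed line at the median of all measured genes (-0.36). The 9 proteases lie between 2.57 and 3.39, beside the other secreted acinar proteins, while related proteases of other cells lie around the dashed line.

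Genes listed as regulators and receptors of acinar cells had mixed differences. Of 8 measured genes of that list 4 were past 2-fold higher and 0 past 2-fold lower, beside 1.57% and 6.32% of all measured genes. Their median was 1.15, with a range from -0.82 to 3.08. Lower by less than 2-fold were Chrm3, a muscarinic receptor gene, and Rab3d. Chrm3 was at a ratio of 0.547 (0.485 to 0.616), with 411 reads in the Ins2-Cre library and 867 in the flox/flox library. Rab3d was at 0.661 (0.625 to 0.699), with 1983 reads in the Ins2-Cre library and 3459 in the flox/flox library. In the flox/flox library Chrm3 and Rab3d each had more reads than Rbpjl or Ptf1a. Which cells the reads of Chrm3 and Rab3d came from was not tested. Rbpjl, the acinar partner of PTF1A, had 591 reads and 15.1 FPKM in the Ins2-Cre library, against 70 reads and 1.56 FPKM in the flox/flox library, a ratio of 9.74 (7.59 to 12.7). Ptf1a had 26 reads in the Ins2-Cre library and 2 in the flox/flox library, a ratio of 15.0 (3.75 to 130.3) and too few reads to be measured. Cckar, the cholecystokinin receptor that triggers enzyme secretion, had 578 reads in the Ins2-Cre library and 106 in the flox/flox library, a ratio of 6.29 (5.10 to 7.81). Gata4, also past 2-fold higher, had 115 reads in the Ins2-Cre library and 16 in the flox/flox library, a ratio of 8.29 (4.89 to 15.0). Nupr1, a stress-induced nuclear protein, stood at 818 FPKM in the Ins2-Cre library and 96.2 in the flox/flox library, a ratio of 8.50 (7.97 to 9.08). Bhlha15, known as Mist1, which acinar cells share with other secretory cells, had a ratio of 1.45 (1.32 to 1.59), with 980 reads in the Ins2-Cre library and 781 in the flox/flox library.

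Proteases listed for other cells did not, as a list, follow the acinar ones. Of 17 measured genes of that list 1 was past 2-fold higher and 1 past 2-fold lower, beside 1.57% and 6.32% of all measured genes, and the median was -0.32. Cpe, the carboxypeptidase that trims prohormones in islet cells, stood at 2297 FPKM in the Ins2-Cre library and 2981 in the flox/flox library, a ratio of 0.771 (0.764 to 0.778). The prohormone convertase genes Pcsk1 and Pcsk2, of the subtilisin/kexin type, had ratios of 0.554 (0.538 to 0.571) and 0.853 (0.843 to 0.864). The median ratio of all measured genes was 0.778. Relative to that median, the log2 differences were -0.01 for Cpe, -0.48 for Pcsk1 and 0.13 for Pcsk2, and the median of the list was 0.04. Hpn, hepsin, a membrane serine protease, was the higher one, on 150 reads in the Ins2-Cre library and 34 in the flox/flox library. Prss53, a serine protease gene, was the lower one, with 4096 reads in the Ins2-Cre library and 14741 in the flox/flox library, a ratio of 0.320 (0.309 to 0.332). Cpa3, the carboxypeptidase of mast cells and the nearest listed gene to Cpb1, had 0 reads in both libraries.

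The deposited annotation gives all 9 members a term for proteolysis and a term for the extracellular space. Another 65 measured genes carry both terms, and 14 of them were at least 2-fold higher in the Ins2-Cre library, beside 1.57% of all measured genes. Over all 74 the median difference was 0.19.

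Few other abundant genes had a difference as large. At a mean of at least 100 FPKM, 31 of the genes reported here had a difference at least that of Try4. They were the 9 proteases, 21 genes of the other lists and Reg2, a secreted lectin of the regenerating family. The 9 pass by the choice of this limit, and the lists were chosen with earlier results known, so this count is no test. Of all measured genes at any level, 0.459% had a difference at least that of Try4, the 9 included. Among genes outside every list at this level, Reg2 was also the nearest to the median of the 9 over these 2 libraries, with 6248 reads in the Ins2-Cre library and 845 in the flox/flox library, a difference of 3.08. Genes of the lists lay as near, among them Cel, carboxyl ester lipase, at a difference of 3.14. The next of the genes outside the lists was Dmbt1, a mucin-like secreted protein, with a difference of 2.52. After it, still outside the lists, came Mt1, Clu and Gstm1 at 1.24, 1.14 and 1.08.

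Markers of other non-endocrine cells gave mixed values. Of 7 measured duct markers 2 were at least 2-fold higher, beside 1.57% of all measured genes. These were Tff2 and Muc1, at ratios of 12.9 (11.6 to 14.3) and 4.58 (3.44 to 6.16), while Krt7 was at 0.669 (0.646 to 0.693). The summed share of the 9 listed duct markers was 0.0870% of reads in the Ins2-Cre library and 0.0699% in the flox/flox library. Of 10 measured stromal, endothelial and immune markers 3 were at least 2-fold higher, beside the same 1.57%, of which Ms4a1, a B cell gene, had 170 reads in the Ins2-Cre library and 28 in the flox/flox library. That list's summed share was 0.0223% in the Ins2-Cre library and 0.0253% in the flox/flox library. None of the defining markers in these lists, such as Krt19, Pecam1 or Ptprc, was at 0 in either library. Some were near it: Cftr had 7 reads in the Ins2-Cre library and 1 in the flox/flox library, Cd3e 10 and 1, and Pdgfra 2 and 7. The part of these cells in the protease values was not tested.

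As a list, beta cell markers were not higher beside the proteases. Of 10 measured 0 were past 2-fold higher and 3 past 2-fold lower, beside 1.57% and 6.32% of all measured genes, with a median difference of -0.62. The 3 were Slc2a2, G6pc2 and Slc30a8, at ratios of 0.357, 0.391 and 0.433. Ucn3 and Iapp were slightly higher, at 1.13 and 1.05, and the rest were lower by less than 2-fold. Relative to the median of all measured genes, 1 of the 10 was past 2-fold lower, beside 1.36% of all measured genes, and the median was -0.26. The 5 other islet hormone genes had a median of 1.18, and 3 of 5 were past 2-fold higher, against that 1.57%. Ppy, pancreatic polypeptide, was at a ratio of 2.54 (2.51 to 2.57), well under the lowest protease.

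In the authors' deposited table, which uses size factors, the log2 fold changes of the 9 proteases ran from 2.95 for Try4 to 3.77 for Cela1. The value for Srsf2 was -0.34. That table gives an adjusted p-value under 0.05 to all 9, and to 72 genes higher in the Ins2-Cre library, or 0.436% of the 16528 it compares. Adjusted p-values in the authors' deposited table were 2.35e-06 for Try4 and 8.11e-10 for Cela1, and 1 for Srsf2. They come from 1 library against 1 by DESeq, so the spread between mice of a genotype could not be estimated for these p-values.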

How the data were processed

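Islet RNA was extracted with Trizol, per the labels' protocols, and sequenced on an Illumina NovaSeq, per the design text. Raw read counts per gene were deposited as whole numbers, with FPKM values beside them, per the file headers. Every FPKM value was recomputed from the deposited counts, listed gene length and total of reads on listed genes. The authors' deposited comparison table holds normalised counts as a signal (reads divided by a size factor of 0.816 for the Ins2-Cre and 1.23 for the flox/flox library), their fold ratio, its log2 value, and p-values with adjusted p-values. Bowtie2 2.4.2, DESeq and the builds mm10 and GRCm38 are named, per the submitters' processing notes. The sources used here do not give the counting tool, the strand setting or the handling of multiply mapped reads.

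Differences were computed as stated with the results (Python 3.11.15, scipy 1.17.1) and the interval method was tested on simulated data. A count model needs replicates and was not fitted. The 9 members, the 10 gene lists and the rule for named genes (members, list members past 2-fold or at the extremes, and the 5 genes outside the lists nearest in difference at a mean of at least 100 FPKM) were chosen with earlier results of these data known. Some other list members were named after their values were seen. The coordinates of 9 of 9 members equal those of RefSeq GRCm38.p6, whose table gave 9 of 9 promoters. Transcripts were aligned with Biopython 1.88 (global alignment). Proteins were not analysed here. 1 gene is not reported here and was left out of the lists and of the count of genes with as large a difference.

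Alternatives were other pseudocounts, scalings, filters, fold rules and totals, removal of the length trend, and leaving out each member.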

Additional observations from a re-analysis of the deposited data

How the results depend on the processing

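All 9 proteases stayed at least 2-fold higher in the Ins2-Cre library under each scaling tried and with the length trend removed. They did so too under each pseudocount and filter, which could hardly move genes at 557 FPKM or more. All 9 also passed the 1.5-fold and 4-fold rules, which leave the differences unchanged. Leaving out a member does not change the differences of the remaining 8, so it bears only on their median. Their median log2 difference of 3.11 became 3.49 with median ratio scaling and with the authors' normalised counts, 3.36 with the total without the 20 highest genes, 3.37 with the total without the acinar lists, and 3.004 with the length trend removed. Leaving out 1 member gave 3.05 without Cela1, Cela2a, Cela3b or Ctrl, 3.08 without Cpb1 and 3.14 without Cpa1, Ctrb1, Prss2 or Try4. Over the 36 ratios of single members under other scalings, all were above 2, from 7.04 to 13.6. The share of reads, 10.7% in the Ins2-Cre and 1.27% in the flox/flox library, became 15.9% in the Ins2-Cre and 1.83% in the flox/flox library of a total without the 20 highest genes (proteases kept). Without insulin genes it was 13.0% in the Ins2-Cre and 1.58% in the flox/flox library, and as a share of summed FPKM 13.3% in the Ins2-Cre and 1.87% in the flox/flox library.

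The count over all genes depends more on the settings. From 167 genes at least 2-fold higher and 674 lower, it became 327 and 160 with median ratio scaling and with the authors' normalised counts, 266 and 315 without the 20 highest genes, and 258 and 257 without the acinar lists. It was 92 and 408 at a mean of at least 5 FPKM, 394 and 3160 with the 1.5-fold rule and 77 and 19 with the 4-fold rule. With the length trend removed it was 217 and 115. The cause of these shifts was not tested.

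No paired analysis was possible because each genotype has 1 library, and leaving out a library would leave no comparison. Counting error is small for the 9 proteases, so the missing replicates, not depth, limit what these values show.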
